A study of Mus musculus with 12 samples.

Results

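The genes examined were 8 homeobox genes of the TALE class: Meis1, Meis2 and Meis3, Pknox1 and Pknox2 (also called Prep1 and Prep2), and Pbx2, Pbx3 and Pbx4. They were chosen by symbol in the deposited promoter tables, as 8 of 55276 symbols, and each had 1 window of 2 kb around an annotated start site. Chromatin came from forebrain tissue of C57BL/6 mouse embryos at stage E12.5, untreated, in 2 genotypes: wild type, and a genotype labelled EedcKO. Eed is the subunit of Polycomb repressive complex 2 (PRC2) that binds trimethylated lysine 27 of histone H3 (H3K27me3). The sources used here do not give the Cre driver, the deleted stretch of Eed, or the number and sex of the embryos, so the cells that lost Eed are not specified. Each genotype had 1 library each for Eed and its input, prepared by X-ChIP, that is, immunoprecipitation of cross-linked chromatin, and 1 each for H3K27me3, acetylated lysine 27 (H3K27ac), RNA polymerase II (RNA-Pol2) and IgG. The latter were made by CUT&Tag, in which an antibody tethers a transposase that cuts nearby DNA. All 12 libraries are single ones of their genotype and target, so differences could not be checked against replicates and no p-values are given.

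TALE proteins carry an enlarged loop in the homeodomain. MEIS and PREP proteins bind PBX proteins through a shared amino-terminal region, and such pairs sit on DNA beside HOX proteins, which sharpens the choice of sites that HOX proteins bind. The forebrain is formed without Hox gene expression, yet it uses TALE proteins: MEIS2 is a regulator of striatal and olfactory bulb neurons and works there with DLX and PAX6 proteins. MEIS1 is best known for blood stem cells, heart and limb, and PREP proteins keep PBX proteins in the nucleus and stable. PRC2 lays down H3K27me3 at genes kept silent by Polycomb proteins, H3K27ac is found at active promoters and enhancers, and the same lysine cannot carry both.

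The libraries held between 948955 and 3842779 promoter counts. For the targeted gene, Eed, the window held 121 reads in Eed of the wild type and 40 in Eed of EedcKO, and 89 and 246 in RNA-Pol2. It held 31 and 79 in the libraries labelled H3K27me3, 130 and 35 in those labelled H3K27ac, 27 and 19 in input, and 20 and 50 in IgG. Reads at a start site do not tell whether an exon elsewhere in the gene was deleted. The labels of both EedcKO H3K27 libraries are in doubt over all symbols. Pearson's r of log2 RPKM between the library labelled EedcKO H3K27ac and the wild type was 0.936 for H3K27me3 and 0.680 for H3K27ac. For the library labelled EedcKO H3K27me3 these values were 0.736 and 0.867, and it was as close to EedcKO IgG (0.871) and closer to wild type RNA-Pol2 (0.931). The library labelled EedcKO H3K27me3 thus differs from wild type H3K27me3, and these values do not tell which mark it holds. Both libraries are therefore called by their labels throughout, and each result that uses them is given by label and with the other library. EedcKO RNA-Pol2 was about as close to wild type H3K27ac (0.901) as to wild type RNA-Pol2 (0.890). Among markers of tissue, 10 forebrain genes had a median of 78 counts in wild type H3K27ac, against 28 for 7 genes of midbrain, hindbrain and spinal cord, 29.5 for 6 endothelial, 14 for 5 erythroid, 43 for 5 microglial and 49 for 5 mesenchymal genes. As log2 ratios over IgG, defined below, these medians were 1.53, -0.04, -0.17, 0.44, 0.001 and 0.61. In wild type H3K27me3 all 10 forebrain genes were also past 2-fold over IgG, beside 19.1% of all promoters and 33.1% of protein-coding ones. So were all 7 of midbrain, hindbrain and spinal cord and all 5 mesenchymal genes. In a bulk tissue, fewer cells with a mark and less of the mark per cell cannot be told apart.

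The windows lie, on mm10, at chromosome 11, 19017985 to 19019984 (Meis1), chromosome 2, 116064839 to 116066838 (Meis2), and chromosome 7, 16174090 to 16176089 (Meis3). Those of the PREP genes lie at chromosome 17, 31563734 to 31565733 (Pknox1) and chromosome 9, 37146407 to 37148406 (Pknox2). Those of the PBX genes lie at chromosome 17, 34590266 to 34592265 (Pbx2), chromosome 2, 34372142 to 34374141 (Pbx3) and chromosome 8, 69831491 to 69833490 (Pbx4). The windows of Meis2, Meis3 and Pbx3 do not cover the outermost RefSeq start of their gene: the window centre was 1699 bp downstream of it at Meis2, 1077 bp downstream at Meis3 and 1096 bp upstream at Pbx3. At Pbx2 the start lies inside the window but close to its edge, 994 bp from the centre. Reads were also shared with overlapping windows of other transcripts. The Meis2 window overlapped that of G630016G05Rik on the opposite strand by 614 bp and that of 2700033N17Rik by 395 bp, the Pknox1 window overlapped Gm24970 by 1691 bp, Gm50455 by 1042 bp and Gm50108 by 436 bp, and the Pbx2 window overlapped Gpsm3 by 540 bp.

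RefSeq promoters, 250 bases before to 50 after the start, were available on GRCm38.p6 for Meis1, Meis2, Meis3, Pbx2 and Pbx4. Except at Pbx2, these starts lie inside the gene and are not its outermost RefSeq start. The promoter start and the outermost start are 19018969 and 19019651 at Meis1, and 116064619 and 116067537 at Meis2. They are 16175395 and 16174012 at Meis3, and 69832624 and 69832476 at Pbx4. Summit distances from the RefSeq start, given below, are from the outermost one. Below are 3 of them, shown because CpG-rich promoters are the usual sites of PRC2 and because these genes differ in H3K27me3; capitals mark each CG dinucleotide. Meis1 is chr11:19018920-19019219 on the minus strand, Meis3 is chr7:16175145-16175444 on the plus strand, and Pbx2 is chr17:34592009-34592308 on the plus strand, of which 257 of 300 bases lie inside the count window.
Meis1: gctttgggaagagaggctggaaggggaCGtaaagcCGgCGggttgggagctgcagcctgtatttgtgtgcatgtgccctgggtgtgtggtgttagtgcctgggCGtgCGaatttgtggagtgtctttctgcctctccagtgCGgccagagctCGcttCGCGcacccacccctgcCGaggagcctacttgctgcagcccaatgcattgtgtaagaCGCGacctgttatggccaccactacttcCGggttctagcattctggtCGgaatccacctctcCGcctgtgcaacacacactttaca
Meis3: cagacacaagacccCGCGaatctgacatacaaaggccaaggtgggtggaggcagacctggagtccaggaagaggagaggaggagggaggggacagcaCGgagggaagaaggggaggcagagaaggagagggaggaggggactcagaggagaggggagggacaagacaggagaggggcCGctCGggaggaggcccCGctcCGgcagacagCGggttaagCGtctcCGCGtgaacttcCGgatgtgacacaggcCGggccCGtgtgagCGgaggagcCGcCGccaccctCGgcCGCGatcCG
Pbx2: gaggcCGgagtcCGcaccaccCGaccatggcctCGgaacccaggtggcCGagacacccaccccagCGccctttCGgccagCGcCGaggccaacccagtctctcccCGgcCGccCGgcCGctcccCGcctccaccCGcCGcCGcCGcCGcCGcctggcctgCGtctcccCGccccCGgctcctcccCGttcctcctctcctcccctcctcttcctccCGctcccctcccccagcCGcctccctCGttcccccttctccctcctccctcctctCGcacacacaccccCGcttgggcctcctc
These stretches hold 15 CG dinucleotides at Meis1, 21 at Meis3 and 29 at Pbx2, and the stretches of Meis2 and Pbx4 hold 13 and 19. The median over 32851 promoters was 7, so all 5 lie above it, and Meis1 and Meis2, which carried the most H3K27me3 in the wild type among the 8 genes, have the fewest CG dinucleotides of the 5. The Meis2 stretch has only 31 of its 300 bases inside the count window, so its CG and read counts describe mostly different DNA. The GC content was 58.3% at Meis1, 51% at Meis2, 66.7% at Meis3, 76% at Pbx2 and 59.3% at Pbx4, against a median of 52.7%. The MEIS core TGACAG, TGATTGACA, from the joint site of PBX with PREP or MEIS proteins, and the HOX and PBX site TGATTGAT were searched on both strands, and none of the 5 stretches held any of them. TGACAG, whose first letters can overlap the end of TGATTGACA, occurs in 19.2% of promoters of this length, TGATTGACA in 0.432% and TGATTGAT in 0.746%. A TATAAA, held by 13.6% of promoters, was found in the Meis2 stretch, and CCAAT, held by 37.4%, in those of Meis1, Meis2 and Pbx4. The Sp1-type box GGGCGG, held by 35.7%, was found on the reverse strand of Pbx2 alone among the 5.

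In the wild type, the 8 promoters were of a mixed kind, with moderate H3K27me3 at some, H3K27ac above IgG at all 8 and none near the H3K27me3 level of Hox promoters. Counts are compared between genes within a library, since all 8 windows are 2 kb long. Levels over control are log2 ratios of RPKM, with a pseudocount of 0.5 RPKM, relative to the median of promoters that average 1 RPKM or more, and a 2-fold difference was the size rule. Intervals in brackets are exact 95% Clopper-Pearson intervals and cover counting error only. Past 2-fold over control in the wild type were 7 of 8 genes for Eed (28.4% of all promoters tested and 52.0% of protein-coding ones) and 6 of 8 for H3K27me3 (19.1% and 33.1%). It was 7 of 8 for H3K27ac (23.3% and 42.9%) and 5 of 8 for RNA-Pol2 (15.3% and 27.3%). Scaled by library totals alone, 3 of 8 were past 2-fold for Eed and 3 for RNA-Pol2, and Eed was below input at Meis2 (-0.70), Meis1 (-0.15) and Pbx4 (-0.13). For H3K27me3 it was then 5 higher and 1 lower, Meis3, with Pbx2 (-0.30) and Pbx4 (-0.028) also below IgG, and for H3K27ac 6 higher. A low IgG count raises the ratios over IgG. Wild type IgG lay below its median of 25 counts at Pknox1 (9), Meis2 (12), Meis1 (14), Pknox2 (15) and Pbx3 (20). It lay above that median at Pbx2 (29), Pbx4 (31) and Meis3 (60). At Pknox1, H3K27me3 was thus 2.196 over IgG with only 49 counts, where the median window of that library held 26.

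**Figure D1:**
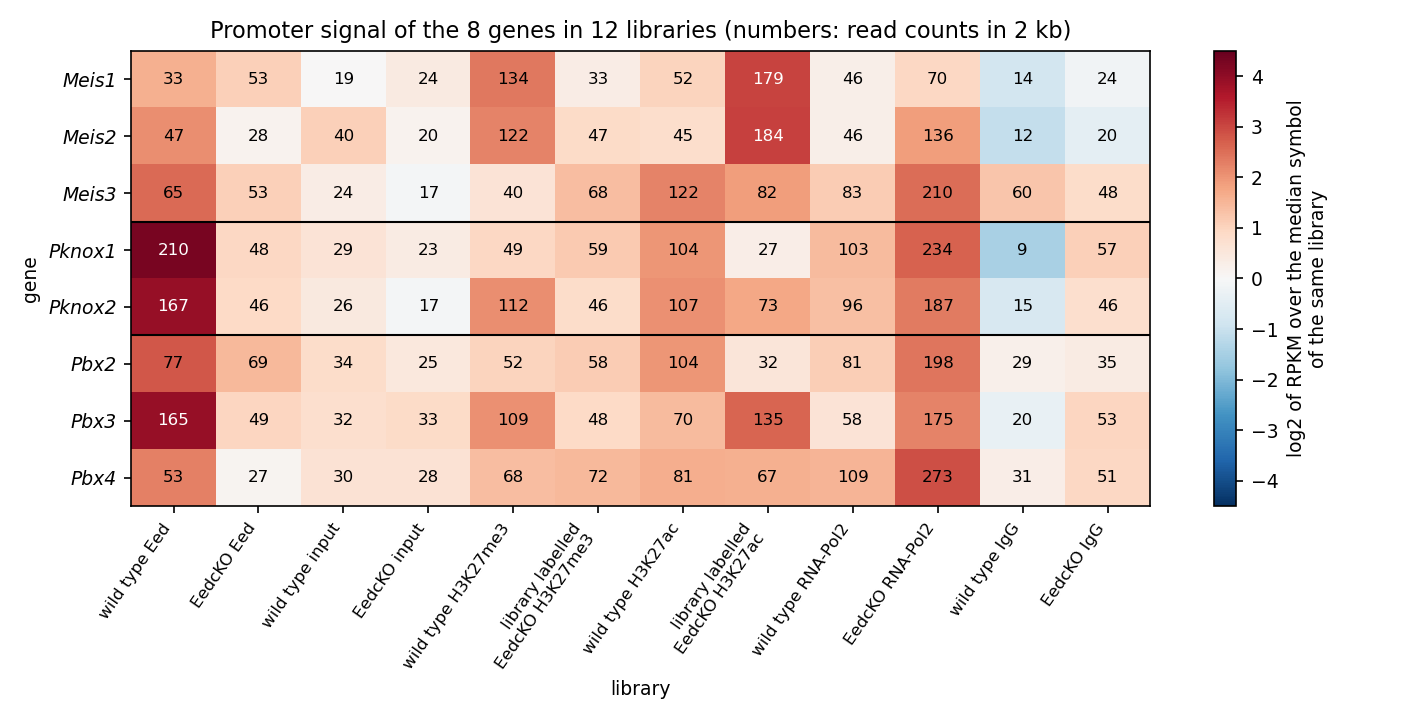
Read counts of the 8 windows (rows) in the 12 libraries (columns), with colour giving log2 of RPKM over the median symbol of the same library and each cell printing the count. Pknox1, Pknox2 and Pbx3 are darkest in wild type Eed with 210, 167 and 165 counts, and Meis1 and Meis2 are darkest in the library labelled EedcKO H3K27ac with 179 and 184 counts.

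Among MEIS genes, Meis1 held 33 counts in wild type Eed, 134 in H3K27me3, 52 in H3K27ac, 46 in RNA-Pol2, 19 in input and 14 in IgG. In EedcKO it held 53 in Eed, 33 and 179 in the libraries labelled H3K27me3 and H3K27ac, 70 in RNA-Pol2, 24 in input and 24 in IgG. Meis1 thus had the lowest wild type Eed count and the highest wild type H3K27me3 count of the 8 genes. Its highest-scoring Eed summit lay outside this window, as given below. Meis2 held 47, 122, 45 and 46 counts in wild type Eed, H3K27me3, H3K27ac and RNA-Pol2, with 40 in input and 12 in IgG. In EedcKO it held 28 in Eed, 47 and 184 in the libraries labelled H3K27me3 and H3K27ac, 136 in RNA-Pol2, and 20 in both input and IgG. Its input count of 40 lay above 99.6% of symbols, so its wild type Eed was only 0.62 above input on the log2 scale (-0.04 to 1.25), the one gene of 8 not past 2-fold. Meis3, the least studied of the MEIS genes, held 65, 40, 122 and 83 counts in wild type Eed, H3K27me3, H3K27ac and RNA-Pol2, with 24 in input and 60 in IgG. Its EedcKO counts were 53 in Eed, 68 and 82 in the libraries labelled H3K27me3 and H3K27ac, 210 in RNA-Pol2, 17 in input and 48 in IgG. Meis3 had the most wild type H3K27ac of the 8 genes, but its IgG count of 60 lay above 98.8% of symbols. Over IgG its H3K27me3 was -0.64 (-1.33 to -0.11), its H3K27ac 0.95 (0.50 to 1.43) and its RNA-Pol2 -0.12 (-0.63 to 0.37), none past 2-fold.

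Of the PREP genes, Pknox1, which is expressed in most tissues, held 210, 49, 104 and 103 counts in wild type Eed, H3K27me3, H3K27ac and RNA-Pol2, with 29 in input and 9 in IgG. Its EedcKO counts were 48 in Eed, 59 and 27 in the libraries labelled H3K27me3 and H3K27ac, 234 in RNA-Pol2, 23 in input and 57 in IgG. It had the highest wild type Eed count of the 8 genes. Its H3K27me3 count was among the lower 4 of the 8. Pknox2, the PREP gene of more restricted expression, held 167, 112, 107 and 96 counts in wild type Eed, H3K27me3, H3K27ac and RNA-Pol2, with 26 in input and 15 in IgG. The EedcKO libraries gave it 46 in Eed, 46 and 73 in the libraries labelled H3K27me3 and H3K27ac, 187 in RNA-Pol2, 17 in input and 46 in IgG. Pknox2 carried both H3K27 marks in the wild type, 2.68 over IgG for H3K27me3 (1.99 to 3.66) and 2.67 for H3K27ac (1.98 to 3.66).

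Of the PBX genes, Pbx2 held 77, 52, 104 and 81 counts in wild type Eed, H3K27me3, H3K27ac and RNA-Pol2, with 34 in input and 29 in IgG. In EedcKO it held 69 in Eed, 58 and 32 in the libraries labelled H3K27me3 and H3K27ac, 198 in RNA-Pol2, 25 in input and 35 in IgG. Pbx2 was on the H3K27ac side, with 1.73 over IgG (1.17 to 2.42), and its H3K27me3 was 0.73 (0.03 to 1.42). Pbx3, which is prominent in developing neurons, held 165, 109, 70 and 58 counts in wild type Eed, H3K27me3, H3K27ac and RNA-Pol2, with 32 in input and 20 in IgG. The EedcKO libraries gave it 49 in Eed, 48 and 135 in the libraries labelled H3K27me3 and H3K27ac, 175 in RNA-Pol2, 33 in input and 53 in IgG. Pbx3 resembled Pknox2 in its wild type Eed and H3K27me3. Pbx4, a PBX gene known for its expression in testis, held 53, 68, 81 and 109 counts in wild type Eed, H3K27me3, H3K27ac and RNA-Pol2, with 30 in input and 31 in IgG. In the EedcKO libraries there were 27 in Eed, 72 and 67 in the libraries labelled H3K27me3 and H3K27ac, 273 in RNA-Pol2, 28 in input and 51 in IgG. Pbx4 had the highest RNA-Pol2 count of the 8 genes in both genotypes.

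Ordered by wild type Eed, Pknox1 exceeded Pknox2 by 1.26 times (1.02 to 1.55), Pknox2 and Pbx3 did not differ beyond counting error, and Pbx3 exceeded the next gene, Pbx2, by 2.14 times (1.63 to 2.85). The neighbours from Pbx2 down through Meis3, Pbx4, Meis2 and Meis1 were not separated by counting error. In wild type H3K27me3 the 8 genes fell into an upper set, Meis1, Meis2, Pknox2 and Pbx3, and a lower set, Pbx4, Pbx2, Pknox1 and Meis3. Within each set no neighbours were separated, and between Pbx3 and Pbx4 the ratio was 1.60 with a lower bound of 1.17. No neighbours in the order of wild type H3K27ac or RNA-Pol2 were separated by counting error. The 3 genes with most wild type Eed were therefore spread over both H3K27me3 sets, with Pknox1 in the lower one.

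The H3K27 marks of the wild type were next set against each other, since repressed Hox promoters carry much H3K27me3 and little H3K27ac. Relative to the median promoter, H3K27me3 exceeded H3K27ac by 1.32 on the log2 scale at Meis1 (0.86 to 1.83) and 1.38 at Meis2 (0.90 to 1.94). It was lower by more than 2-fold at Meis3, at -1.55 (-2.19 to -1.11), and at Pknox1, at -1.05 (-1.64 to -0.61). Of all promoters, 17.7% were past 2-fold on the H3K27me3 side and 11.9% on the H3K27ac side, and of protein-coding ones 18.9% and 19.7%. Pbx3 at 0.61, Pknox2 at 0.05, Pbx4 at -0.25 and Pbx2 at -0.97 lay between. Scaled by library totals, without subtracting the median, no gene was past 2-fold on the H3K27me3 side and 3 were on the H3K27ac side. Hox genes differed from the 8 genes in both marks. All 39 Hox genes were past 2-fold on the H3K27me3 side, with a median of 6.15 against -0.10 for the 8 genes. The median count in wild type H3K27me3 was 88.5 for the 8 genes and 1384 for 39 Hox genes, which ranged from 883 to 2136. It was 1128 for 9 other TALE genes of the Irx, Tgif and Mkx families. In wild type H3K27ac these medians were 92.5, 18 and 37. The highest H3K27me3 count of the 8 genes, 134 at Meis1, was below the lowest of the Hox genes. Hoxd12, which patterns digits and genitalia, had the most H3K27me3 of the Hox genes with 2136 counts and 16 in H3K27ac, and Irx2, a neural and heart patterning gene, had the most of the other TALE genes with 1688 and 33. Tgif2, a TALE repressor of the TGF-beta pathway, was the other TALE gene with most H3K27ac and lay near the 8 genes, with 48 counts in H3K27me3 and 79 in H3K27ac.

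**Figure D2:**
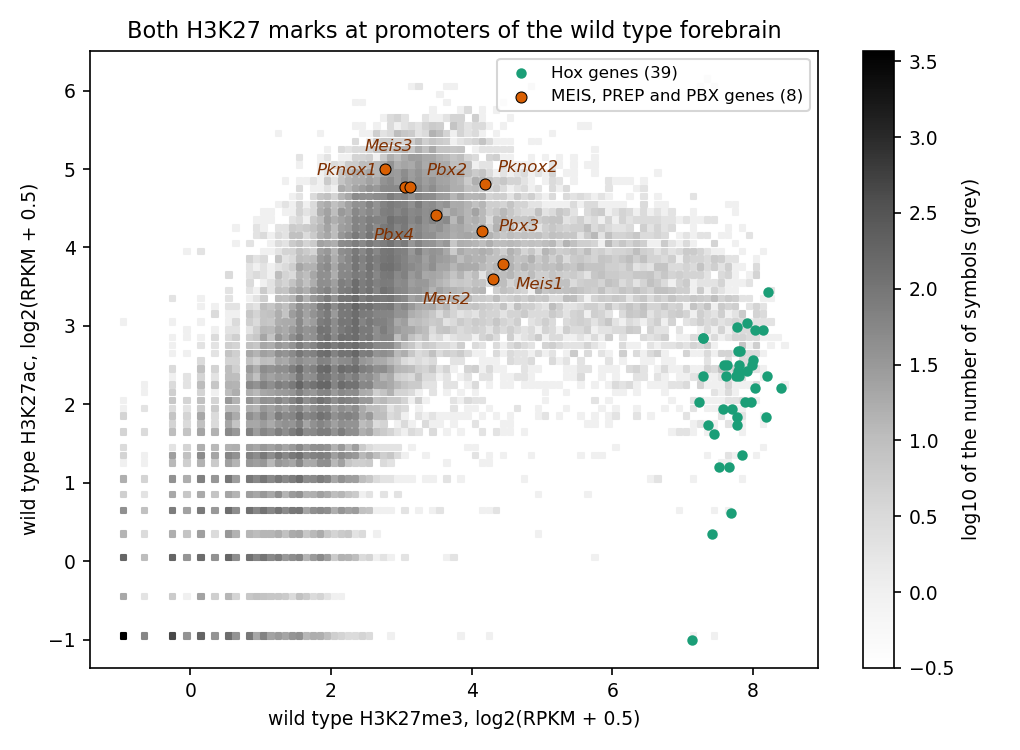
Wild type H3K27me3 (horizontal) and H3K27ac (vertical) of every symbol on a log2(RPKM + 0.5) scale, with grey giving the number of symbols, green points the 39 Hox genes and orange points the 8 genes. All 8 lie far to the left of the Hox genes, whose lowest H3K27me3 count is 883 against a highest of 134 among the 8.

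Binding of Eed was compared between genotypes to ask what the EedcKO library retained. Totals alone shifted the median promoter by 0.88 (Eed), 0.85 (libraries labelled H3K27me3), -1.04 (labelled H3K27ac) and -0.41 (RNA-Pol2) on the log2 scale, and ratios of EedcKO to wild type are given relative to these shifts. Eed was at least 2-fold lower in EedcKO at 5 of 8 genes and higher at none, against 30.0% of all promoters lower and 22.6% higher, and 48.2% of protein-coding ones lower. Both PREP genes were among the 5, Pknox1 at -2.53 (-3.05 to -2.10) and Pknox2 at -2.26 (-2.80 to -1.81). Pbx3 followed at -2.16 (-2.67 to -1.72), with Pbx4 at -1.38 (-2.13 to -0.71) and Meis2 at -1.17 (-1.91 to -0.47). Meis3 at -0.73, Pbx2 at -0.60 and Meis1 at 0.21 were not past 2-fold, and the interval at Meis1, from -0.40 to 0.92, includes 0. Scaled by library totals alone, Pknox1, Pknox2 and Pbx3 stayed past 2-fold lower, at -1.65, -1.38 and -1.28, while Meis1 was past 2-fold higher at 1.09 and Meis3 and Pbx2 were at 0.15 and 0.28. The 3 genes with the most wild type Eed had the 3 lowest ratios, and the wild type count is part of each ratio. In the EedcKO Eed library the 8 genes held 27 to 69 counts against 33 to 210 in the wild type, and only Meis3, at 1.02 over input (0.24 to 1.94), was past 2-fold over input there, a share of 1 in 8 beside 5.16% of all promoters, and with library totals alone none was. The input libraries did not differ past 2-fold at any of the 8 genes, beside 3.33% of promoters higher and 2.50% lower.

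The H3K27 marks in EedcKO depend on which library is read as which mark. By label, H3K27me3 was at least 2-fold lower at 4 of 8 genes, against 13.0% of promoters lower and 6.81% higher: Meis1 at -1.93 (-2.56 to -1.41), Meis2 at -1.31 (-1.84 to -0.83), Pknox2 at -1.22 (-1.76 to -0.72) and Pbx3 at -1.12 (-1.65 to -0.63). These 4 are the upper H3K27me3 set of the wild type, whose counts the ratios share, and none of the lower set was past 2-fold, with Meis3 at 0.75, Pknox1 at 0.27, Pbx2 at 0.17 and Pbx4 at 0.10. By label, H3K27ac was at least 2-fold higher at 3 genes, against 18.2% of promoters: Meis2 at 2.13 (1.69 to 2.67), Meis1 at 1.90 (1.47 to 2.39) and Pbx3 at 1.08 (0.66 to 1.52). It was lower at 2 genes, against 11.7% of promoters: Pknox1 at -1.65 (-2.48 to -1.19) and Pbx2 at -1.44 (-2.18 to -0.98). Of protein-coding promoters, 18.0% were lower for H3K27me3 by label, and 20.7% higher and 18.3% lower for H3K27ac by label. Meis1, Meis2 and Pbx3 thus had less of one mark and more of the other by label, relative to the median promoter. Scaled by library totals alone, H3K27me3 by label was past 2-fold lower at Meis1 only (-1.08) and higher at Meis3 (1.60), Pknox1 (1.12) and Pbx2 (1.02). H3K27ac by label was then past 2-fold higher at Meis2 only (1.10) and lower at 5 genes, Pknox1, Pbx2, Meis3, Pknox2 and Pbx4.

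With the other library most differences were under 2-fold. Set against wild type H3K27me3, the library labelled EedcKO H3K27ac was past 2-fold at 1 of 8 genes, Meis3, at 1.08 (0.56 to 1.71), beside 2.55% of promoters higher and 4.49% lower. Meis2 was at 0.67 (0.35 to 1.03), Meis1 at 0.50 (0.18 to 0.84) and Pbx3 at 0.40 (0.02 to 0.78), each the reverse in direction of its ratio by label. Pbx4 was at 0.08, Pknox2 at -0.50, Pbx2 at -0.54 and Pknox1 at -0.68. The library labelled EedcKO H3K27me3, set against wild type H3K27ac, was past 2-fold at 1 gene, Pknox2, at -1.10 (-1.66 to -0.62), beside 6.18% of promoters lower and 13.0% higher. The rest lay between 0.14 at Meis2 and -0.74 at Meis3 and Pbx2. Over the 8 windows alone, Pearson's r of log2 RPKM was 0.77 between the library labelled EedcKO H3K27ac and wild type H3K27me3, and -0.78 against wild type H3K27ac. For the library labelled EedcKO H3K27me3 it was -0.83 and 0.63, which describes windows of the same libraries and depths and is no test. Over IgG, 3 genes were past 2-fold in the library labelled EedcKO H3K27ac (14.5% of promoters), Meis1 at 2.93, Meis2 at 3.21 and Pbx3 at 1.44, and 1 gene in the library labelled EedcKO H3K27me3 (7.78%), Meis2 at 1.17.

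**Figure D3:**
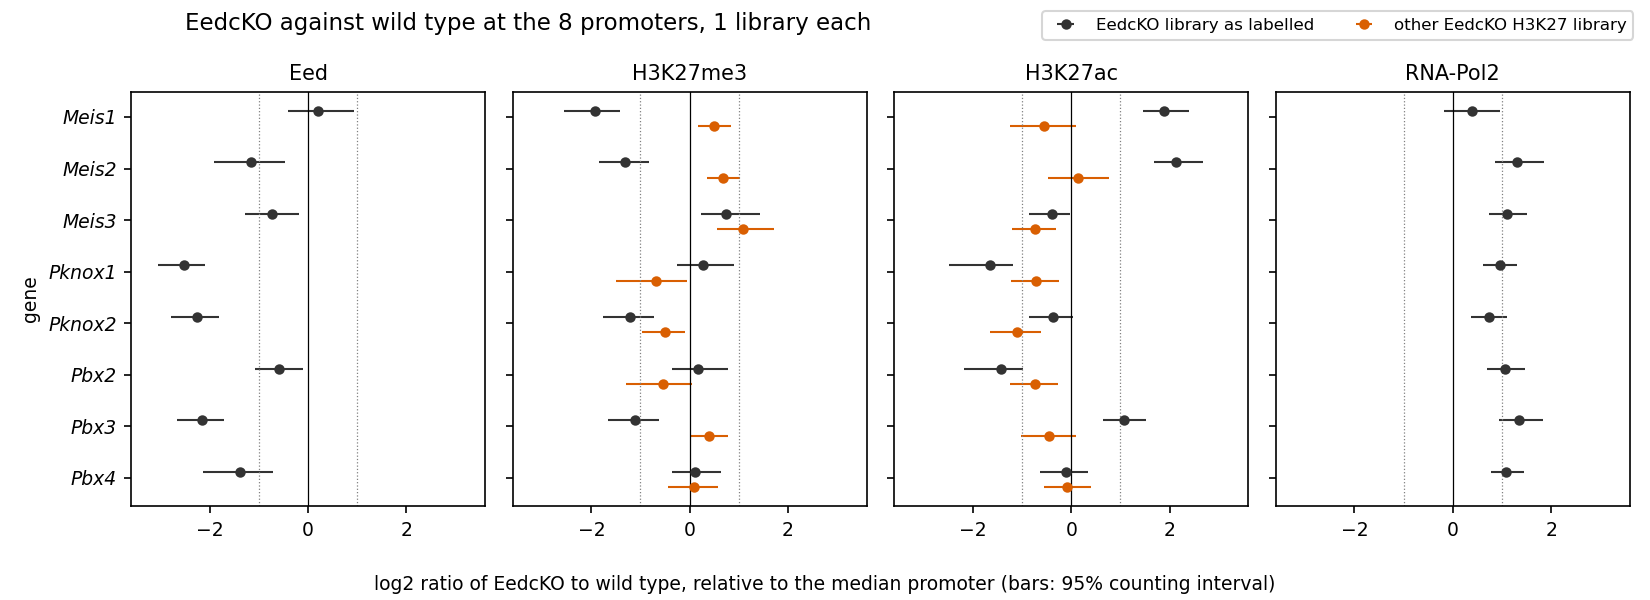
Log2 ratio of EedcKO to wild type (horizontal, relative to the median promoter) for each gene and target, 1 library each; bars are 95% counting intervals, dotted lines mark 2-fold and orange points use the other EedcKO H3K27 library. Pknox1, Pknox2 and Pbx3 lie below -2 for Eed, and for both H3K27 marks Meis1 and Pbx3 change side with the library used.

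RNA-Pol2 was compared to ask whether these promoters held more polymerase in EedcKO. It was at least 2-fold higher relative to the median promoter at 5 of 8 genes, against 12.2% of all promoters and 22.7% of protein-coding ones, and lower at none, against 7.86%. Pbx3 was at 1.35 (0.94 to 1.83), Meis2 at 1.31 (0.85 to 1.86), Meis3 at 1.10 (0.75 to 1.50), Pbx4 at 1.09 (0.78 to 1.44) and Pbx2 at 1.05 (0.69 to 1.46). Pknox1 at 0.95 and Pknox2 at 0.74 lay just below, and Meis1 at 0.39 had an interval from -0.17 to 0.96. The size depends on the scaling: with library totals alone, or relative to the median of protein-coding promoters, which itself lay at 0.48, the count of genes past 2-fold was 0. Meis1 was then at -0.023 and -0.095, and the other 7 stayed above 0 under both. The IgG libraries differed as well at some of these windows. IgG was past 2-fold higher in EedcKO at 3 of 8 genes, against 7.33% of promoters, and lower at none, against 6.77%, with Pknox1 at 2.38 (1.53 to 3.75), Pknox2 at 1.42 (0.64 to 2.45) and Pbx3 at 1.24 (0.53 to 2.12). With IgG subtracted, RNA-Pol2 was past 2-fold at 2 of 8 genes, 1 higher and 1 lower, and Pbx3 was at -0.07. The higher one was Meis3, where wild type RNA-Pol2 (16.7 RPKM) was below IgG (21.2 RPKM). Subtraction set that value to 0, so the ratio there rests on the pseudocount. The lower one was Meis1, with RNA-Pol2 and IgG at 9.27 and 4.96 RPKM in the wild type and 9.11 and 7.67 in EedcKO. After subtraction, RNA-Pol2 was also lower in EedcKO at Pknox1 and Pknox2, short of 2-fold. Over its own IgG, EedcKO RNA-Pol2 was past 2-fold at 7 of 8 genes, all but Meis1 at 0.87, and at 3 of 8 with library totals alone. The 7 of 8 stand against 23.4% of promoters and 42.1% of protein-coding ones.

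The deposited summits, 1 position for each peak and called separately in every library, place the signal more finely than a 2 kb window. Their score is the authors' −log10 value, and the sources used here do not say whether it is of p or of q. Within 1 kb of the window centre, wild type Eed had a summit at 6 of 8 genes, against 29.1% of symbols and 54.8% of protein-coding ones. The other 2, Pbx2 and Pbx3, had theirs 1218 bp and 1705 bp downstream of the window centre with the highest scores among the nearest Eed summits of the 8 genes, 78.7 and 82.5. Measured from the RefSeq start these lie 224 bp and 609 bp downstream, so the count windows of Pbx2 and Pbx3 miss the position of their strongest Eed summit. Wild type H3K27me3 had a summit within 1 kb at 3 genes (6.40% of symbols), Meis1, Pknox2 and Pbx3. Wild type H3K27ac had one at 3 genes (10.3%), Pknox2, Pbx2 and Pbx4, and wild type RNA-Pol2 at 1 gene (4.92%), Pbx4. Of protein-coding symbols, 12.7%, 21.7% and 10.3% had such a summit of wild type H3K27me3, H3K27ac and RNA-Pol2. Pknox2 was the single gene with summits of both H3K27 marks in its window, 239 bp and 730 bp downstream of the centre, with an Eed summit at 579 bp. The scores of these H3K27 summits were 6.20 for H3K27me3 and 12.4 for H3K27ac. No wild type H3K27me3 summit within 1 kb of the 8 window centres had a score of at least 10.

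In EedcKO, Eed had a summit within 1 kb at 4 genes (9.41% of symbols), Meis1, Meis3, Pbx2 and Pbx3, with nearest scores from 3.25 to 5.35, against 14.8 to 52.0 for the 6 genes in the wild type. Scores of separate lists are not on one scale of change. The library labelled EedcKO H3K27me3 had no summit within 1 kb of any of the 8 genes (1.18% of symbols), nor over any gene with 10 kb on either side, in a list of 671 summits. The library labelled EedcKO H3K27ac had one at 1 gene (5.93%), Pbx3. EedcKO RNA-Pol2 had one at 6 genes (19.7% of symbols and 40.3% of protein-coding ones), all but Meis1 and Meis2, in a list of 25930 summits against 3716 in the wild type.

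**Figure D4:**
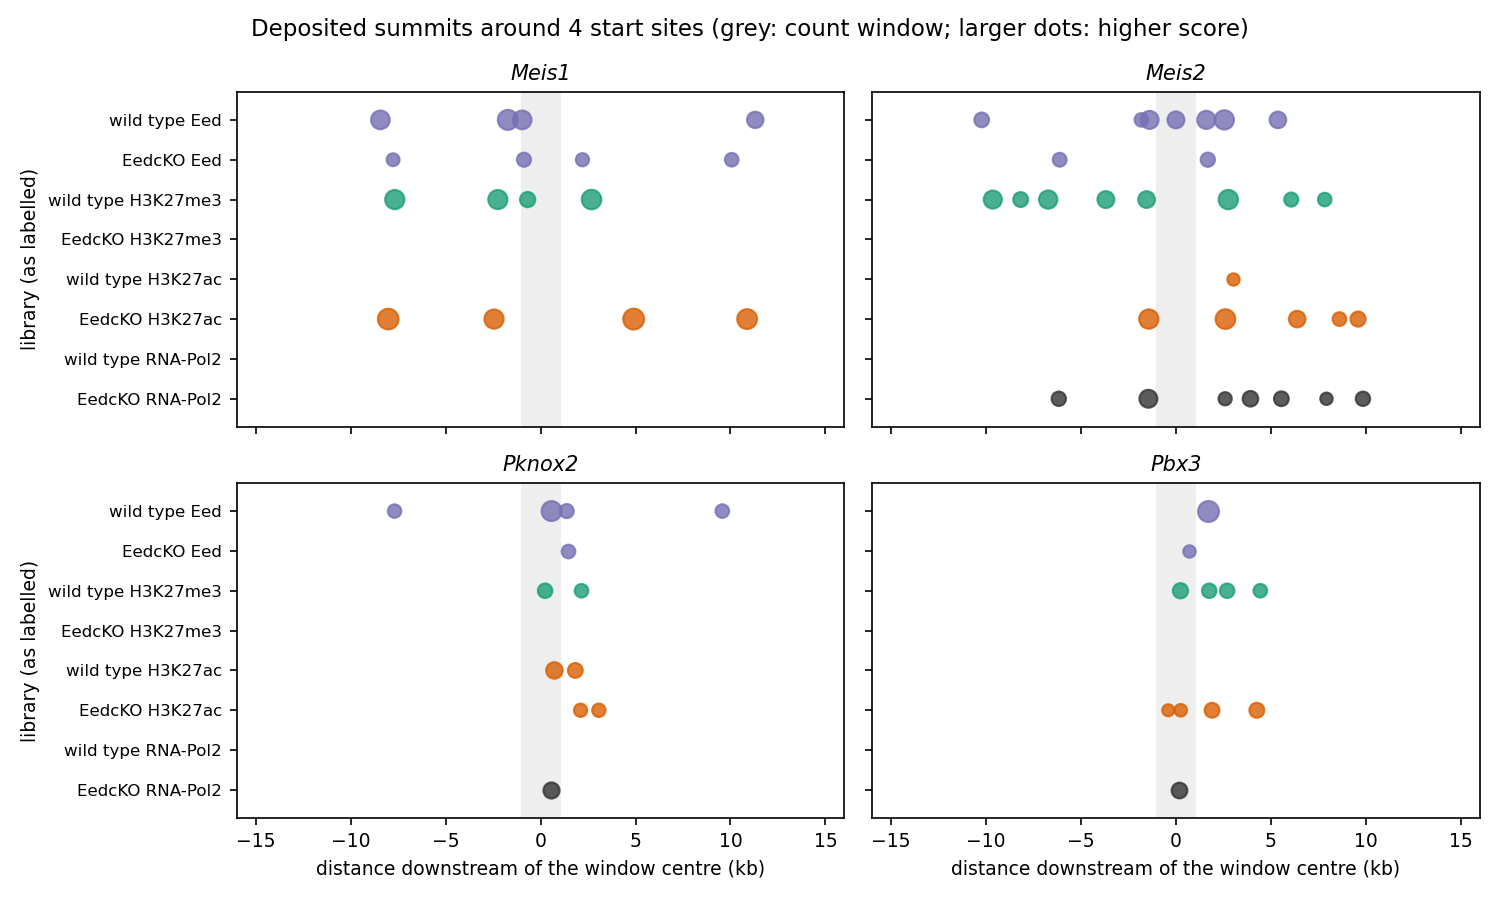
Deposited summits within 15 kb of the window centre (horizontal, kb, downstream positive) of Meis1, Meis2, Pknox2 and Pbx3 in the 8 antibody libraries as labelled, with dot area growing with the score and grey marking the count window. At Meis1 and Meis2 summits of wild type H3K27me3 and of the library labelled EedcKO H3K27ac flank the window on both sides, and the library labelled EedcKO H3K27me3 has none. At Meis1, 1 wild type H3K27me3 summit lies inside the window, 679 bp upstream of its centre.

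Meis1 and Meis2 stood apart from the other 6 genes in how far H3K27me3 extended. Over the gene and 10 kb on either side, wild type H3K27me3 had 8 summits at Meis1 and 11 at Meis2, against 0 to 4 at the other genes. Of 21887 protein-coding genes, 0.557% had as many as Meis1 and 0.210% as many as Meis2, in spans of unequal length. Those at Meis1 lay at both ends of its 139 kb: 4 lay between 7.01 kb upstream and 3.35 kb downstream of the RefSeq start, and 4 between 138 kb and 148 kb downstream, where the scores reached 147. Meis2, 206 kb long, had 8 between 7.94 kb upstream and 9.54 kb downstream of the start and 3 at 208 kb and beyond. The library labelled EedcKO H3K27ac had 8 summits at Meis1 and 10 at Meis2, also at both ends. Wild type H3K27ac had 0 and 2 there, against 7 at Pknox2, a number that 0.247% of protein-coding genes reached. EedcKO RNA-Pol2 had 25 summits over Meis2, against 2 in the wild type; 0.114% of protein-coding genes had as many, and the list as a whole was longer, as given above. At Meis1 it had 1, beyond the gene's far end.

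Windows of other transcripts inside these loci carried H3K27me3 as well. Within Meis1, Gm16141 and Gm16140, on the opposite strand 5168 bp and 9857 bp downstream of the Meis1 window, held 400 and 346 counts in wild type H3K27me3 and 653 and 454 in the library labelled EedcKO H3K27ac. They held 30 and 34 in wild type H3K27ac and 13 and 22 in the library labelled EedcKO H3K27me3. The Meis1 window itself, with 134, was thus lower in H3K27me3 than both windows behind it. Farther in, 2610001A08Rik held 88, and 2900018N21Rik and Gm37818, about 130 kb away, held 44 and 52. At Meis2 the 2 windows that overlap its own, G630016G05Rik and 2700033N17Rik, held 206 and 209 counts in wild type H3K27me3 and 359 and 355 in the library labelled EedcKO H3K27ac. In RNA-Pol2 they held 77 and 71 counts in the wild type and 234 and 220 in EedcKO. CUT&Tag reads carry no strand, so signal of Meis2 and of these transcripts cannot be told apart.

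**Figure D5:**
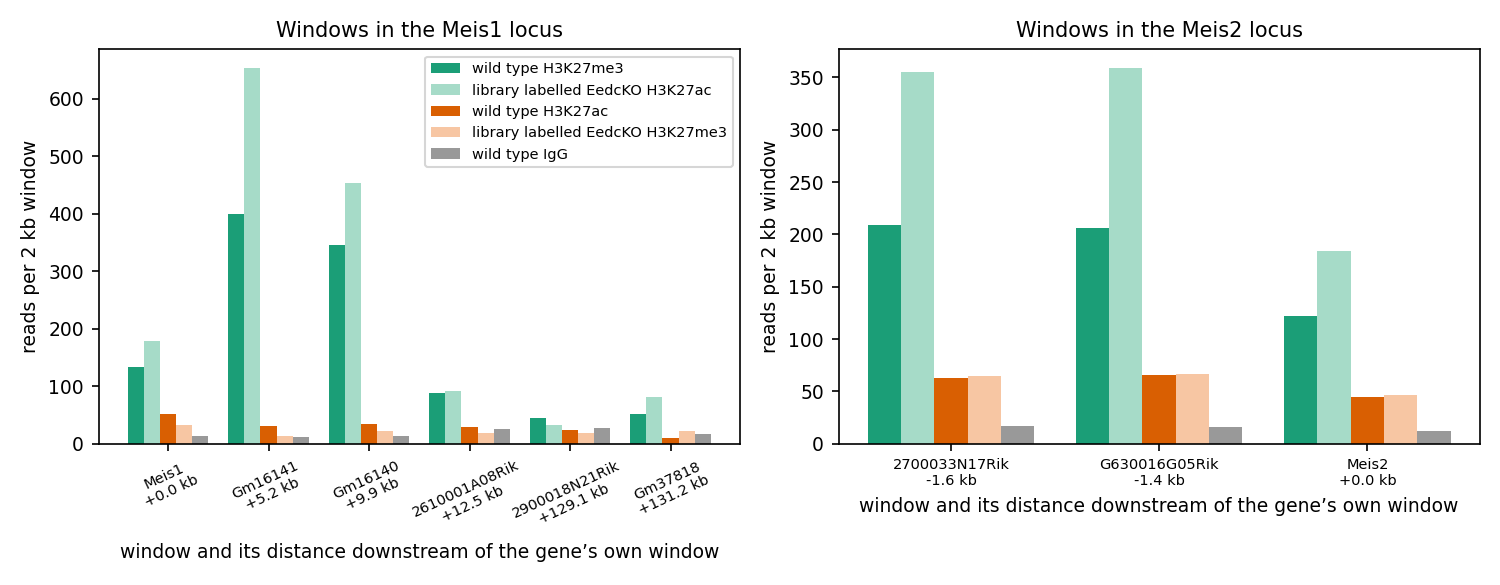
Read counts per 2 kb window (vertical, from 0) for windows in the Meis1 and Meis2 loci, ordered by distance downstream of the gene's own window, in both wild type H3K27 libraries, both EedcKO H3K27 libraries and wild type IgG. The highest bars at Meis1 are those of Gm16141, with 400 counts in wild type H3K27me3 and 653 in the library labelled EedcKO H3K27ac.

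Likeness over all 12 libraries was measured as the root mean square difference of log2(RPKM + 0.5), between each gene and 18331 protein-coding genes (18330 for Pbx2). The closest were Ap1m2 for Meis1 (0.258), Shc3 for Meis2 (0.381), Dzip1l for Meis3 (0.297), Wdfy3 for Pknox1 (0.215), Ncs1 for Pknox2 (0.241), Shd for Pbx2 (0.175), Ptpn13 for Pbx3 (0.186) and Kmt5c for Pbx4 (0.265). Among the 8 genes, the closest pairs were Pknox2 and Pbx3 at 0.476, Meis1 and Meis2 at 0.533 and Meis3 and Pbx4 at 0.549, and the farthest apart were Meis1 and Pknox1 at 1.39. The MEIS genes were thus not one group: Meis3 was nearer to Pbx4 than to Meis1, from which it differed by 1.14. The median distance to the compared protein-coding genes was 1.04 for Meis3 and 1.19 for Meis1. These distances include the input and IgG libraries, where Meis3 held 60 counts in wild type IgG and Meis1 held 14.

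Genes that work with or before MEIS proteins were set beside them. Of 16 genes of striatal and olfactory bulb neurons, 15 were past 2-fold over IgG in wild type H3K27me3 and 10 in H3K27ac, with 1 lower in the latter. Higher were 19.1% and 23.3% of all promoters, and 33.1% and 42.9% of protein-coding ones. The median log2 ratios of the neuron genes were 4.65 and 1.07, against 2.23 and 1.74 for the 8 TALE genes. They were 0 for all promoters and 0.50 and 0.76 for protein-coding ones. Gsx2, a homeobox gene of striatal progenitors, had 1232 counts in H3K27me3 and 16 in H3K27ac, and Foxp2, a regulator of striatal and cortical neurons, had 160 and 111. Retinoic acid induces Meis genes in limb and other tissues. Of 18 genes of its pathway, 11 were past 2-fold higher and 1 lower over IgG in H3K27me3, and 5 were higher in H3K27ac, with medians of 1.68 and 0.56. The H3K27ac share is near that of all promoters but below the 42.9% of protein-coding ones, whose median was 0.76. Aldh1a2, which makes retinoic acid, had 1407 counts in H3K27me3 and 50 in H3K27ac, and Rdh10, which makes its precursor retinaldehyde, had 64 and 167. Between genotypes, Eed was at least 2-fold lower in EedcKO at 11 of the 16 neuron genes, 8 of the 18 retinoic acid genes, 7 of the 9 other TALE genes and 23 of the 39 Hox genes, against 30.0% of promoters and 48.2% of protein-coding ones. It was higher at 2, 2, 1 and 5 of them, against 22.6% and 16.4%. The medians were -1.69, -0.51, -1.93 and -1.14, against -1.27 for the 8 genes and -0.91 for protein-coding promoters. The retinoic acid genes were thus not lower in Eed than protein-coding promoters in general. RNA-Pol2 was at least 2-fold higher at 3, 1, 1 and 0 of them, against 12.2% of all promoters and 22.7% of protein-coding ones. It was lower at 1 retinoic acid gene and at none of the others. The medians were 0.48, 0.32, 0.32 and -0.08, against 1.07 for the 8 genes and 0.48 for protein-coding promoters.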

How the data were processed

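The authors deposited, for each of 12 libraries, a table of whole-number read counts in promoter windows, and, for the 8 antibody libraries, summit lists with a score (−log10 of p or of q). The tables are named for RPKM, but their values are counts and were treated as such, where the plan had assumed RPKM. The submitters' processing notes name ChIPseeker 1.22.1, deepTools 3.4.0, MACS2 2.2.7.1, Bowtie2 2.4.1 and mm10; how reads were filtered is not given in the sources used here. RPKM was computed from the window length and the total promoter count (948955 to 3842779 per library), with the window of highest mean RPKM per symbol. Ratios used a pseudocount of 0.5 RPKM, a minimum mean of 1 RPKM, the median shift and a 2-fold rule. They were run on simulated counts in which most promoters were unchanged between the libraries, which does not test the median shift. Alternatives were other pseudocounts, no filter, no shift, control subtraction, protein-coding genes only and the other EedcKO H3K27 library. The members and lists were chosen with earlier results of these data known. All 8 genes are named; of each list, the genes with most wild type H3K27me3 and H3K27ac; and for each gene the most alike one of 3 listed. Positions, names and promoters are from RefSeq GRCm38.p6, which has the primary coordinates of mm10. Python 3.11.15, numpy 2.4.6, pandas 2.3.3, scipy 1.17.1 and matplotlib 3.10.9 were used. Reads have no molecular identifiers, so intervals cover counting error only.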

Additional observations from a re-analysis of the deposited data

How the results depend on the processing

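With 1 library per group, no replicate could be left out. No paired analysis was possible because each genotype and target has 1 library, so the groups share a single replicate number. Of the counts of genes past a threshold, 69 kept within 1.5 times of the value in the report under an alternative, 21 moved and 4 turned direction; of single-gene ratios, 435 stayed, 114 moved and 9 that were past 2-fold changed sign. The cause was not tested unless named. Without the median shift, the counts of genes past 2-fold in EedcKO against wild type became 4 for H3K27me3 (3 higher, 1 lower), 6 for H3K27ac (1 higher, 5 lower) and 0 for RNA-Pol2. Over control they became 3 for wild type Eed, 3 for wild type RNA-Pol2, 0 for EedcKO Eed and 3 for EedcKO RNA-Pol2, and of the genes past 2-fold, Meis1 (-0.15) and Pbx4 (-0.13) for wild type Eed and Pbx4 (-0.028) for wild type H3K27me3 changed sign; Meis2 (-0.70) and Pbx2 (-0.30), not past 2-fold, did so too. With the EedcKO library labelled with the other mark, the counts were 1 for H3K27me3 (higher) and 1 for H3K27ac (lower), and the ratios past 2-fold by label that reversed were Meis1 0.50, Meis2 0.67 and Pbx3 0.40 for H3K27me3 and Meis1 -0.55 and Pbx3 -0.44 for H3K27ac; below 2-fold by label, Pknox1 (-0.68) and Pbx2 (-0.54) for H3K27me3 also changed sign. A pseudocount of 2 RPKM gave 2 for H3K27me3, 2 for RNA-Pol2 and 0 for EedcKO Eed over input, and no filter also gave 0 for the last. With control subtracted RNA-Pol2 gave 2, with Pbx3 at -0.067, and with protein-coding genes only it gave 0. Of the 2, Meis3, whose wild type value was set to 0 by the subtraction, was higher, and Meis1 was lower. Summits with a score of at least 10 were found within 1 kb at 0 genes for wild type H3K27me3, 1 for wild type H3K27ac, and 0 for wild type RNA-Pol2, EedcKO Eed and the library labelled EedcKO H3K27ac. Within 5 kb the counts were 5 for wild type H3K27ac, 2 for wild type RNA-Pol2 and 4 for the library labelled EedcKO H3K27ac, and within 500 bp they were 3 for wild type Eed and 1 for EedcKO Eed. The alternatives for wild type H3K27me3 against H3K27ac were chosen after seeing the data. Depth limits single windows: the 8 genes held 9 to 60 counts in the IgG and input libraries.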

Other observations

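Summits of several libraries lay beyond the far end of Meis1. Their scores are the authors' −log10 values and rank summits within a list only. Wild type Eed had summits 142 kb and 148 kb downstream of the RefSeq start, with scores of 30.4 and 50.05, against at most 53.3 near the start. Wild type H3K27me3 had summits at 144 kb and 148 kb with scores of 147 and 115, against at most 42.9 near the start. The library labelled EedcKO H3K27ac had one at 148 kb with a score of 250, against at most 80.3 near the start. Within 10 kb of the gene, the EedcKO Eed list had none beyond 33.0 kb downstream of the start. Transcripts that start at this far position were not analysed here.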
